A study of Mus musculus with 4 samples.

Results

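The comparison set OSKM against G3SKM, the libraries of mouse fibroblasts that received the same 3 reprogramming factors together with either OCT4 or GATA3. Genes at 1 RPKM (a read count divided by gene length and library size) or more in at least 1 of these groups were kept, which left 10222 genes of the 27597 that the deposited tables list. The fibroblasts came from embryonic skin of strain OGXICR at age D13.5, after the epidermis had been taken off, and grew in medium with serum. All groups carried lentivirus of a doxycycline-inducible system. The empty_vector group received no factor, SKM received SOX2, KLF4 and c-MYC, OSKM received these with OCT4, and G3SKM received them with GATA3. How long the factors had been induced, and whether the infected cells were selected, is not given in the sources used here. Each group has 1 deposited value per gene, which joins 2 replicates, and without their separate values no difference can be weighed against replicate error and no test was made.

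OCT4, encoded by Pou5f1, is a POU-domain transcription factor that maintains the undifferentiated state of early embryonic and embryonic stem cells. GATA3 is a zinc-finger transcription factor of the trophoblast, of T lymphocytes, of the mammary gland and of the hair follicle. SOX2, KLF4 and c-MYC complete the classical reprogramming set, and the series concerns the induction of pluripotency by lineage specifiers, factors known for directing differentiation.

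The depth recovered from the deposited values was 74.7 M reads for OSKM and 102 M for G3SKM, beside 111 M for empty_vector and 54.0 M for SKM. At this depth 9633 genes reached 1 RPKM in OSKM and 9741 in G3SKM. Calls followed a rule of size, an absolute difference of 1 or more in log2(RPKM + 1). By this rule 74 genes (0.724%) were higher in OSKM and 230 (2.25%) were higher in G3SKM, together 304 (2.97%). The median log2 ratio was 0.01, and 86.1% of the genes lay within 0.5 of zero. Among protein-coding genes the balance was the other way, with 48 of 6993 (0.686%) higher in OSKM and 29 (0.415%) higher in G3SKM, together 1.1%. Against empty_vector 8.98% of genes passed the same rule in OSKM and 10.9% in G3SKM. These comparisons share the empty_vector library. Folds below are ratios of RPKM without an added value, and the ranges after them are 95% Clopper-Pearson intervals computed from recovered reads. The intervals cover counting error alone, and they are approximate where a gene's reads did not come out as whole numbers. The cDNA was amplified by PCR, so reads are not independent molecules.

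**Figure D1:**
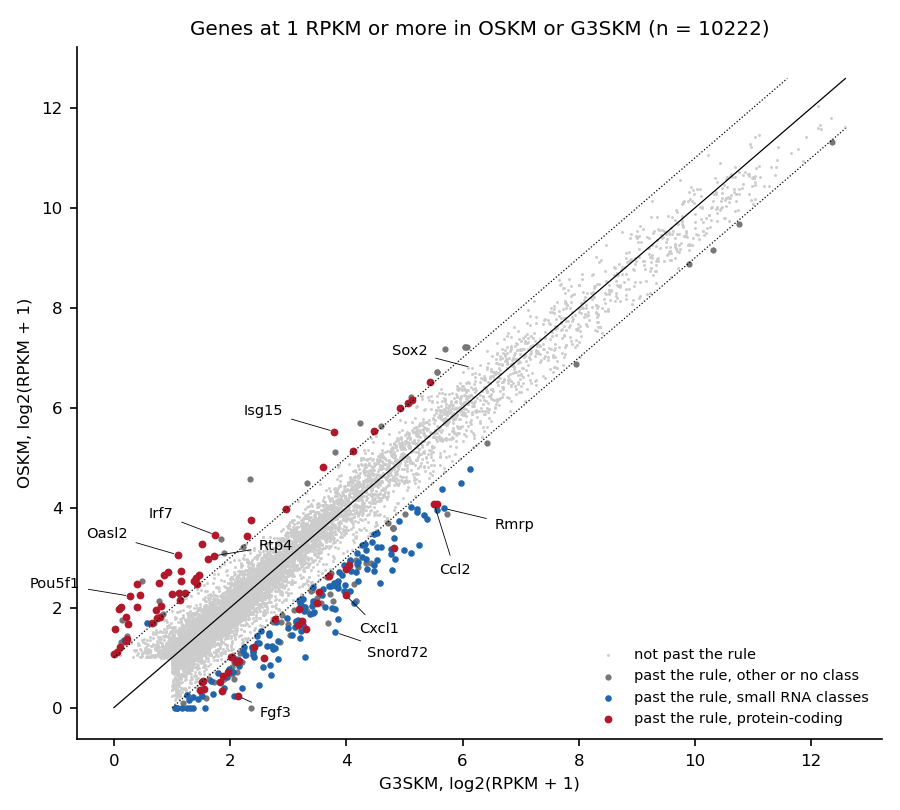
Each point is 1 of the 10222 genes, at log2(RPKM + 1) in G3SKM (x axis) and OSKM (y axis). The solid line marks equal values and the dotted lines the rule of size. Red points are the 77 protein-coding genes past the rule, which lie on both sides, dark grey points are past the rule in other classes, and blue points are genes of small RNA classes past the rule, of which 142 lie on the G3SKM side and 2 on the OSKM side.

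The deposited RPKM divide by the whole gene span, introns included, so that genes with long introns stand low and many do not reach 1 RPKM. The median span of a protein-coding gene was 5.50 times its exon length. With the same reads divided by exon length, 12022 protein-coding genes were compared, of which 191 (1.59%) were higher in OSKM and 99 (0.823%) in G3SKM, together 2.41%. Values on this scale are named as exon-length RPKM below.

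The delivered factors were at different levels in the 2 groups. Pou5f1 was listed at 0 in empty_vector and was at 3.69 RPKM in OSKM and 0.212 in G3SKM, beside 0.297 in SKM. It was 17.4-fold higher in OSKM than in G3SKM (14.3 to 21.6). Gata3 was at 0.0836 RPKM in OSKM and 0.571 in G3SKM, beside 0.0639 in empty_vector and 0.0444 in SKM. It did not reach 1 RPKM, and it was 6.83-fold higher in G3SKM (5.91 to 7.92). On the exon-length scale Gata3 was at 0.693 RPKM in OSKM and 4.73 in G3SKM. Both genes were therefore highest in the library labelled with them, and the deposited values do not separate transcripts of the virus from those of the cell's own gene.

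The 3 factors common to both groups were also unequal. Sox2 was at 110.5 RPKM in OSKM and 70.7 in G3SKM, beside 0.260 in empty_vector and 187 in SKM. Klf4 was at 13.9 RPKM in OSKM and 8.55 in G3SKM, beside 6.26 in empty_vector and 19.3 in SKM. Myc was at 10.5 RPKM in OSKM and 6.31 in G3SKM, beside 16 in empty_vector and 11.9 in SKM. In OSKM these were higher than in G3SKM by 1.56-fold for Sox2 (1.53 to 1.6), 1.63-fold for Klf4 (1.56 to 1.69) and 1.67-fold for Myc (1.59 to 1.75). None of these passed the rule of size, but in every difference below the exchange of OCT4 for GATA3 and the higher level of the other factors cannot be told apart. In bulk RNA, moreover, fewer cells that express a gene and less RNA per cell cannot be told apart.

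Genes of the interferon response were higher in OSKM as a group. Type I interferon acts through its receptor and a transcription factor complex that binds short GAAA repeats in the promoters of antiviral genes. Of 38 genes on the list, 25 reached 1 RPKM in at least 1 of the 2 groups. All 25 had a log2 ratio above 0, their median was 0.69 against 0.01 for all genes, and 5 (Oasl2, Isg15, Irf7, Rtp4 and Gbp3) were past the rule, for which the share over all genes was 0.724%. None was past the rule in the other direction. With the GC trend removed 4 were past the rule, since Gbp3 was then at 0.998, and the median was 0.66. The median was 0.30 with a pseudocount of 5 RPKM. On the exon-length scale 34 members were compared, of which 33 were above 0 and 12 were past the rule, with a median of 0.83. A member can pass the 1 RPKM filter through its higher group alone, here as in every list below, and the list was chosen with earlier results of these data known.

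Oasl2, of the oligoadenylate synthetase family, was at 7.32 RPKM in OSKM and 1.14 in G3SKM, beside 0.895 in empty_vector and 0.994 in SKM. It was 6.41-fold higher in OSKM than in G3SKM (6.09 to 6.75). Isg15, a ubiquitin-like protein that is joined to other proteins during antiviral responses, was at 45.0 RPKM in OSKM and 12.9 in G3SKM, beside 19.5 in empty_vector and 13.3 in SKM. Its fold was 3.50 (3.31 to 3.70). Irf7, a transcription factor that amplifies interferon production, was at 9.96 RPKM in OSKM and 2.36 in G3SKM, beside 2.38 in empty_vector and 4.07 in SKM. Its fold was 4.23 (3.92 to 4.56). In each of these genes OSKM stood above the other 3 libraries, and G3SKM lay close to SKM or empty_vector.

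Rtp4, a receptor transport protein induced by interferon, was at 7.20 RPKM in OSKM and 2.29 in G3SKM, beside 2.75 in empty_vector and 1.90 in SKM. Gbp3, a guanylate-binding protein of cell-autonomous defence, was at 2.54 RPKM in OSKM and 0.734 in G3SKM, beside 0.344 in empty_vector and 0.561 in SKM. Their folds were 3.14 (3.09 to 3.19) and 3.45 (3.21 to 3.72). Rsad2, the gene of viperin, did not reach 1 RPKM, at 0.925 in OSKM and 0.0719 in G3SKM, beside 0.0401 in empty_vector and 0.04997 in SKM, and it was 12.9-fold higher in OSKM (10.5 to 16). The members under the rule were spread from strong to slight. Usp18, which removes ISG15 from proteins, was 4.03-fold higher (3.73 to 4.35). B2m, the light chain of MHC class I, was 1.79-fold higher (1.75 to 1.82). Irf1 and Xaf1 were nearest to equality, with log2 ratios of 0.05 and 0.09.

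Ifnar1, a gene of the interferon receptor, was under the rule. Ifnar2, also of the receptor, and Ifnb1, a ligand gene, were below the filter and could not be called. Ifnar1 was at 2.02 RPKM in OSKM and 1.88 in G3SKM, beside 2.64 in empty_vector and 1.76 in SKM. Ifnar2 was at 0.678 RPKM in OSKM and 0.780 in G3SKM, beside 0.887 in empty_vector and 0.814 in SKM. Ifnb1, the gene of interferon beta, had 0 reads in OSKM and 2 in G3SKM.

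The letters GAAANNGAA, searched on both strands in the 250 bases before each start in RefSeq (GRCm38.p6), stood in 10 of the 21 compared interferon-list genes with a promoter in the table (47.6%). They stood in 8.18% of all 27025 genes of that table and in 7.02% of the genes compared. Such repeats are known from promoters of antiviral genes, so the share on the list does not bear on the difference between the groups. Among protein-coding genes past the rule the letters stood in 5 of 30 higher in OSKM (16.7%), Pou5f1 among them, and in 1 of 19 higher in G3SKM. The promoter windows of 4 of the 10 genes are shown to let the repeats be seen, from 5′ to 3′ on the strand of the gene, with the matches in capitals. Matches that begin with TTC are the same motif read on the other strand, and neighbouring matches overlap.
Isg15, chr4:156200846-156200926, minus strand, 3 matches: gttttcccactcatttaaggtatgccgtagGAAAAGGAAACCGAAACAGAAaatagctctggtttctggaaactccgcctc
Ifit1, chr19:34640750-34640843, plus strand, 3 matches: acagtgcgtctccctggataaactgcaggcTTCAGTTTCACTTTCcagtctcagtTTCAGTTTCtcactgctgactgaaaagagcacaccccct
Gbp3, chr3:142559970-142560043, plus strand, 2 matches: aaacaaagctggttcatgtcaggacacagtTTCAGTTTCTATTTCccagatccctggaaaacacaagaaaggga
Bst2, chr8:71537558-71537632, minus strand, 2 matches: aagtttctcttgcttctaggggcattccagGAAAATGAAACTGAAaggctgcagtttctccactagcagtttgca

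Among these 4 genes Isg15 and Gbp3 were past the rule. Ifit1, an antiviral protein that binds foreign RNA ends, was at 1.4 RPKM in OSKM and 0.333 in G3SKM, beside 0.704 in empty_vector and 0.283 in SKM, a 4.19-fold difference (3.68 to 4.78). Bst2, the gene of tetherin, was at 42.2 RPKM in OSKM and 21.8 in G3SKM, beside 11.4 in empty_vector and 24.1 in SKM, a 1.94-fold difference (1.88 to 2.00). The matches describe these letters alone and do not show binding.

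**Figure D2:**
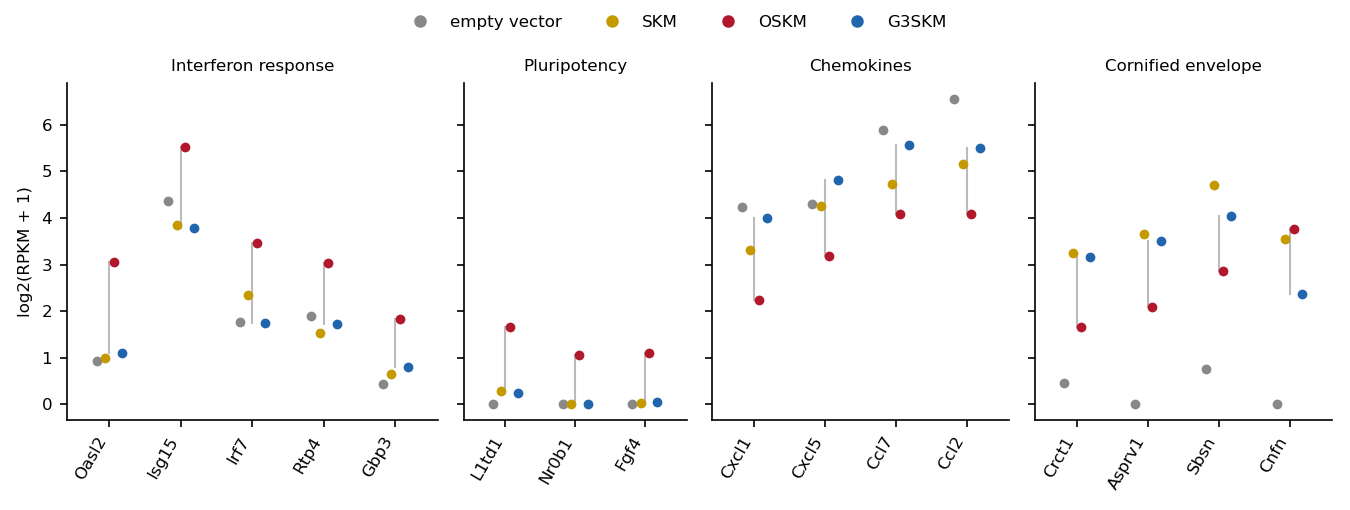
log2(RPKM + 1) of 16 genes in the 4 libraries, in 4 panels, with 1 point per library and a grey line between the OSKM and G3SKM values. The interferon response and pluripotency genes have their highest point in OSKM, while the chemokine and cornified envelope genes other than Cnfn have a higher point in G3SKM than in OSKM.

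Of 40 pluripotency genes, 9 were compared and 3 were past the rule, all higher in OSKM, with a median log2 ratio of 0.26. The share past the rule in that direction was 0.724% over all genes and 0.686% over protein-coding genes. L1td1, an RNA-binding protein of embryonic stem cells, was at 2.17 RPKM in OSKM and 0.186 in G3SKM, beside 0.00153 in empty_vector and 0.211 in SKM. It was 11.7-fold higher in OSKM (10.1 to 13.46). Nr0b1, which encodes the nuclear receptor DAX1, was listed at 0 in empty_vector and SKM and was at 1.10 RPKM in OSKM and 0.00471 in G3SKM, from 343 and 2 reads. Fgf4, a growth factor secreted in the epiblast, was listed at 0 in empty_vector and was at 1.15 RPKM in OSKM and 0.0409 in G3SKM, beside 0.0192 in SKM. Its fold was 28.2 (22.4 to 36.2). These 3 genes were at 0.211 RPKM or less in every library but OSKM.

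None of the other members compared was past the rule. On the exon-length scale 17 members were compared, of which 5 were past the rule in OSKM and none in G3SKM. Of these 17, 12 were above 0, and the median was 0.33. The share past the rule in OSKM on that scale was 1.59% over protein-coding genes. With no filter the median over 40 members was 0.01. Nanog was at 0.137 RPKM in OSKM, from 73 reads, and 0.131 in G3SKM, from 95 reads, beside 0.0340 in empty_vector and 0.0906 in SKM. The Nanog ratio of 1.04 has an interval from 0.759 to 1.43, so a difference was not detectable at this depth. Trim28 and Mybl2 had log2 ratios of 0.43 and 0.26.

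Of 8 ectoderm genes compared 5 were above 0 and 1, Sox11, was past the rule, with a median of 0.34. Single developmental transcription factors past the rule in OSKM are described next. Pou3f4, a POU-domain factor of the nervous system and inner ear, was at 5.34 RPKM in OSKM and 0.809 in G3SKM, beside 0.183 in empty_vector and 2.05 in SKM. Its fold was 6.60 (5.74 to 7.62). Pou3f1, of the same family, did not reach 1 RPKM and was not compared, at 0.613 RPKM in OSKM and 0.0294 in G3SKM. Foxd1, a forkhead factor of kidney stroma and dermal cells, was at 8.66 RPKM in OSKM and 1.85 in G3SKM, beside 2.33 in empty_vector and 2.81 in SKM. Its fold was 4.69 (4.36 to 5.05). Sox11, a neural progenitor factor, was at 9.78 RPKM in OSKM and 3.91 in G3SKM, beside 6.19 in empty_vector and 8.80 in SKM, so that G3SKM was the lowest of the 4 libraries. Its fold was 2.50 (2.40 to 2.61).

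Msc, a basic helix-loop-helix repressor of muscle genes, was at 3.05 RPKM in OSKM and 0.0827 in G3SKM, beside 0.0172 in empty_vector and 0.0636 in SKM, and an antisense gene lies over its whole span. Foxo4, a forkhead factor of the insulin pathway, was at 5.07 RPKM in OSKM and 1.67 in G3SKM, beside 1.46 in empty_vector and 2.48 in SKM. Regulators of signalling stood beside them. Nrarp, a feedback inhibitor of Notch signalling, was at 5.56 RPKM in OSKM and 0.915 in G3SKM, beside 0.294 in empty_vector and 1.35 in SKM, a fold of 6.07 (5.27 to 7.01). Fzd5, a Wnt receptor, was at 5.31 RPKM in OSKM and 1.74 in G3SKM, beside 1.59 in empty_vector and 2.75 in SKM, a fold of 3.04 (2.84 to 3.25). Igfbp3, which binds insulin-like growth factors, was 3.02-fold higher (2.83 to 3.23). Each was the 1 gene past the rule on its list. Of 8 Notch genes compared 4 were above 0, and on the exon-length scale 1 of 13 was past the rule in OSKM and 2 in G3SKM. Of 8 Wnt genes 5 were above 0, with a median of 0.08. Of 11 genes of the IGF system 5 were above 0, with a median of -0.03.

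Some single genes known from secretory granules or neurons were also past the rule in OSKM. They were picked after their values were seen and stand for no gene list. Pcsk1n, an inhibitor of the prohormone convertase PCSK1, had the largest log2 ratio of the protein-coding genes compared, 2.09, at 4.58 RPKM in OSKM and 0.313 in G3SKM, beside 0.0157 in empty_vector and 0.867 in SKM. Vgf, a granule protein induced by nerve growth factor, was at 3.74 RPKM in OSKM and 0.371 in G3SKM, beside 0.883 in empty_vector and 1.28 in SKM. Penk, the precursor of the enkephalins, was at 1.3 RPKM in OSKM and 0.0801 in G3SKM, beside 0.0749 in empty_vector and 0.0420 in SKM. The folds were 14.6 for Pcsk1n (12.3 to 17.4), 10.1 for Vgf (8.86 to 11.5) and 16.3 for Penk (11.9 to 22.8). Cbln2, a secreted organiser of synapses, was at 2.93 RPKM in OSKM and 0.0618 in G3SKM, beside 0.00502 in empty_vector and 0.0619 in SKM, a fold of 47.5 (35.3 to 65.4).

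On the exon-length scale 2 genes with long introns, picked in the same way, were past the rule. Scg5, a chaperone of the prohormone convertase PCSK2, was at 8.70 exon-length RPKM in OSKM and 0.471 in G3SKM, beside 0.287 in empty_vector and 0.342 in SKM. Gap43, a protein of growing axons, was at 19.5 exon-length RPKM in OSKM and 2.59 in G3SKM, beside 4.13 in empty_vector and 1.46 in SKM. The folds were 18.5 for Scg5 (14.6 to 23.7) and 7.52 for Gap43 (6.76 to 8.39). The neurofilament gene Nefl lies within the annotated span of Nefm on the other strand, and at 3.82-fold (3.46 to 4.23) and 4.97-fold (4.60 to 5.37) both were higher in OSKM, though their reads may not be separate. Other granule genes had few reads: Chga had 25 in OSKM and 5 in G3SKM, a 6.79-fold difference per depth (2.55 to 22.7), and Scg2 had 19 in each, a ratio of 1.36 (0.681 to 2.71).

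Single epithelial and metabolic genes were also higher in OSKM. Aqp3, a water and glycerol channel of the epidermis, was at 6.87 RPKM in OSKM and 2.07 in G3SKM, beside 0.00165 in empty_vector and 1.84 in SKM, a fold of 3.32 (3.10 to 3.56). Fgfbp1, which releases fibroblast growth factors from the matrix, was at 4.61 RPKM in OSKM and 0.704 in G3SKM, beside 0.00311 in empty_vector and 0.651 in SKM, a fold of 6.56 (5.63 to 7.63). Both were near zero in empty_vector and highest in OSKM. Ldhb, the heart-type subunit of lactate dehydrogenase, was at 3.45 RPKM in OSKM and 1.21 in G3SKM, beside 0.995 in empty_vector and 1.23 in SKM. At a log2 ratio of 1.01 it was the protein-coding gene just inside the rule, while Hspa2 lay just outside at 0.99. On the other side Doc2g lay just inside at -1.0005 and Rps27a just outside at -0.996, and at the filter Bicra was just inside at 1.0004 RPKM in OSKM and Ripk1 just outside at 0.99996.

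Histone genes of the Hist1 cluster that encode H2A, a core protein of the nucleosome, were higher in OSKM by nearly the same amount. Of 10 protein-coding members compared, 8 were past the rule, and the 10 lay between 0.93 and 1.22 on the log2 scale, with a median of 1.03. Hist1h2ag was at 90.4 RPKM in OSKM and 42.4 in G3SKM, beside 50.6 in empty_vector and 64.0 in SKM. Hist1h2ak was at 27.2 RPKM in OSKM and 11.1 in G3SKM, beside 13.4 in empty_vector and 19.3 in SKM. The order of the libraries was the same in both genes, with OSKM highest and G3SKM lowest. None of the other 34 clustered histone genes (H1, H2B, H3, H4 and the Hist2 and Hist3 H2A genes) was past the rule, and their median was -0.06, from -0.40 to 0.52. The Hist1 H2A genes are near-identical copies whose reads the counting could share or split, so their single values are uncertain. Outside the 10 protein-coding members, Hist1h2aj was past the rule in OSKM at 1.04, and at 0.97 with the GC trend removed. Hist1h2al, annotated as a pseudogene, was on the other side at -0.49. With the trend of the log2 ratio with GC content removed, 6 of the 10 were past the rule and the median was 1.01. Among single-copy variants, H2afx, the variant phosphorylated at DNA breaks, was at 71.5 RPKM in OSKM and 38.4 in G3SKM, beside 43.1 in empty_vector and 71.7 in SKM, a fold of 1.86 (1.80 to 1.93), while H2afz had a log2 ratio of -0.46. Cell cycle genes, described below, had a median log2 ratio of 0.29.

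**Figure D3:**
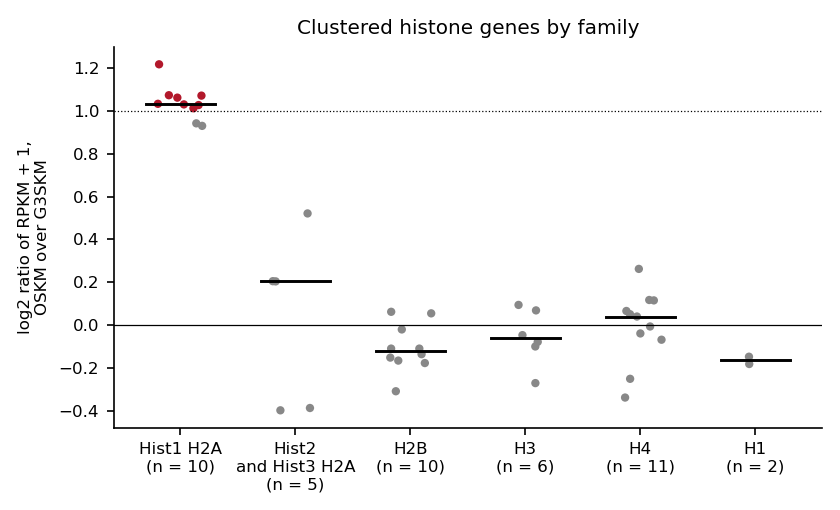
log2 ratio of RPKM + 1, OSKM over G3SKM (y axis), for each protein-coding clustered histone gene compared, by family (x axis), with bars at the medians, the solid line at equality and the dotted line at the rule of size. The 10 Hist1 H2A genes lie between 0.93 and 1.22 and the other 34 genes between -0.40 and 0.52.

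In the other direction, chemokines were higher in G3SKM. These secreted proteins draw leukocytes to injured tissue and are made by stimulated fibroblasts. Of 36 genes on the list 12 were compared, 1 had a log2 ratio above 0, 4 were past the rule in G3SKM, and the median was -0.55. The share past the rule in that direction over all genes was 2.25%, and over protein-coding genes 0.415%. On the exon-length scale 20 were compared, of which 5 were past the rule in G3SKM and 1 in OSKM. Of these 20, 4 were above 0, and the median was -0.45.

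Cxcl1, a neutrophil attractant, was at 3.75 RPKM in OSKM and 14.9 in G3SKM, beside 17.9 in empty_vector and 8.87 in SKM, a 3.98-fold difference (3.62 to 4.38). Cxcl5, of the same receptor class, was at 8.13 RPKM in OSKM and 27.2 in G3SKM, beside 18.7 in empty_vector and 18.2 in SKM, a 3.35-fold difference (3.16 to 3.55). OSKM was the lowest of the 4 libraries for both. Ccl2, a monocyte attractant, was at 15.9 RPKM in OSKM and 44.6 in G3SKM, beside 93.5 in empty_vector and 34.8 in SKM, a 2.80-fold difference (2.67 to 2.93). Ccl7, its neighbour in the same gene cluster, was at 15.9 RPKM in OSKM and 46.3 in G3SKM, beside 58.0 in empty_vector and 25.5 in SKM, a 2.91-fold difference (2.78 to 3.05). Here empty_vector was highest and OSKM again lowest. A predicted gene on the opposite strand, Gm17268, covers the whole span of Ccl2. It had 2245 recovered reads in OSKM and 8515 in G3SKM, beside 2241 and 8515 for Ccl2. The same reads thus appear to have been counted for both genes, although the sources used here do not say whether counting was by strand.

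Il6, a cytokine of the acute phase, was at 0.328 RPKM in OSKM and 1.09 in G3SKM, beside 1.17 in empty_vector and 0.383 in SKM, a 3.31-fold difference (2.80 to 3.94) with a log2 ratio of -0.65. Saa3, an acute phase protein outside the list, was at 0.258 RPKM in OSKM and 2.64 in G3SKM, beside 0.389 in empty_vector and 2.95 in SKM, a 10.2-fold difference (8.09 to 13.3). Nfkbia, the inhibitor and target of NF-kappaB, was at 4.91 RPKM in OSKM and 9.07 in G3SKM, beside 17.5 in empty_vector and 11.2 in SKM, with a log2 ratio of -0.77. Ptgs2, the prostaglandin synthase, and Spp1, osteopontin, were nearer to equality, with log2 ratios of -0.12 and 0.13. Ccl8, which did not pass the filter, was on the other side, with 100 reads in OSKM and 9 in G3SKM. Macrophages also make these chemokines. The 23 macrophage markers summed to 5.13 RPKM in OSKM and 6.76 in G3SKM, beside 75.4 in empty_vector and 8.59 in SKM. None of them was listed at 0 in either group. The 3 that passed the filter, of the 23, were all below 0, with a median of -0.25, and Lyz2, the lysozyme of macrophages, was lowest at -0.72. On the exon-length scale 7 were compared, of which 1 was past the rule in G3SKM and 2 were above 0. Their part in the chemokine difference was not tested.

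Genes of the cornified envelope, the protein shell of the outermost epidermal cells, were in part higher in G3SKM. Of 36 keratinocyte and cornified envelope genes 19 were compared, 3 were past the rule in G3SKM and 1 in OSKM. Of the 19, 6 were above 0, and the median was -0.46. The shares past the rule in these directions were 2.25% and 0.724% over all genes, and 0.415% and 0.686% over protein-coding genes. On the exon-length scale 5 and 3 of 27 were past the rule in these directions, against 0.823% and 1.59% of protein-coding genes. Crct1, a cysteine-rich protein of the epidermal differentiation complex, was at 2.15 RPKM in OSKM and 7.99 in G3SKM, beside 0.364 in empty_vector and 8.54 in SKM. Asprv1, a protease that processes filaggrin, was at 3.24 RPKM in OSKM and 10.3 in G3SKM, beside 0.0118 in empty_vector and 11.6 in SKM. Sbsn, suprabasin of the upper epidermal layers, was at 6.26 RPKM in OSKM and 15.5 in G3SKM, beside 0.683 in empty_vector and 25.0 in SKM. All 3 were under 1 RPKM in empty_vector, highest in SKM, and lower in OSKM than in G3SKM, with folds of 3.72 (3.23 to 4.29), 3.18 (2.84 to 3.57) and 2.47 (2.36 to 2.59).

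The keratinocyte keratins Krt14, Krt16 and Krt17 were under the rule. Krt14, of basal keratinocytes, was at 16.5 RPKM in OSKM and 22.8 in G3SKM, beside 33.8 in SKM, and Krt16, of activated keratinocytes, was at 13.8 RPKM in OSKM and 21.4 in G3SKM, beside 30.6 in SKM. Krt17 was at 5.32 RPKM in OSKM and 4.89 in G3SKM. Cnfn, cornifelin of the cornified envelope, went the other way, at 0 in empty_vector, 12.5 RPKM in OSKM and 4.13 in G3SKM, beside 10.7 in SKM, a 3.02-fold difference (2.79 to 3.27). Dsp, desmoplakin of the desmosome, was also higher in OSKM, by 2.36-fold (2.27 to 2.46). Late cornified envelope genes, a tandem family whose copies may share reads, had few reads: Lce1a1 had 85 in OSKM and 521 in G3SKM, Lce1a2 had 36 and 309, and Lce1b had 40 and 241. The 35 listed keratinocyte markers summed to 113 RPKM in OSKM and 153 in G3SKM, beside 12.4 in empty_vector and 232 in SKM. None of these was listed at 0 in either group. The part of keratinocyte-type cells in the difference was not tested.

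Gjb5, a connexin of cell-to-cell channels in epidermis, was also higher in G3SKM and was chosen after its value was seen. It was at 1.33 RPKM in OSKM and 4.30 in G3SKM, beside 0.632 in empty_vector and 2.60 in SKM, a 3.24-fold difference (2.87 to 3.66). Its relative Gjb2, at 0.513 RPKM in OSKM and 0.699 in G3SKM, was below the filter, with a 1.36-fold difference (1.16 to 1.6). Calm4, a calmodulin-like protein of skin, was at 0 in empty_vector, 0.981 RPKM in OSKM and 5.02 in G3SKM, beside 1.90 in SKM.

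Fgf3, a growth factor of ear and tail development, had the largest log2 ratio of the protein-coding genes higher in G3SKM, at -1.91. It was listed at 0 in empty_vector and was at 0.173 RPKM in OSKM and 3.39 in G3SKM, beside 1.41 in SKM, a 19.7-fold difference (15.8 to 24.8). Fgf3 and Fgf4, neighbours in the genome and members of 1 growth factor family, thus differed in opposite directions. Pycard, the adaptor ASC of the inflammasome, was at 5.83 RPKM in OSKM and 15 in G3SKM, beside 1.17 in empty_vector and 13.0 in SKM, a 2.58-fold difference (2.45 to 2.72). For Fgf3 and Pycard SKM was closer to G3SKM than to OSKM on the log2 scale. On the exon-length scale Il18, an inflammasome product, was at 3.74 RPKM in OSKM and 13.3 in G3SKM, and Cd40, a receptor of the tumour necrosis factor family, at 0.896 and 6.06.

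Gnb1l, a WD-repeat protein whose long span holds Rtl10 on the same strand, and Cox20, an assembly factor of cytochrome oxidase, were higher in G3SKM than in the other 3 libraries. Gnb1l was at 2.31 RPKM in OSKM and 8.40 in G3SKM, beside 1.54 in empty_vector and 1.67 in SKM, a 3.64-fold difference (3.56 to 3.71). Cox20 was at 3.98 RPKM in OSKM and 10.6 in G3SKM, beside 4.70 in empty_vector and 4.46 in SKM, a 2.66-fold difference (2.48 to 2.84). Cox20 overlaps Hnrnpu on the other strand, which had a log2 ratio of 0.21. Meg3, a maternally expressed imprinted long RNA, was at 6.78 RPKM in OSKM and 17.0 in G3SKM, beside 16.9 in empty_vector and 18.4 in SKM, a 2.51-fold difference (2.46 to 2.55). OSKM was the one library with low Meg3. It was the 1 gene past the rule among the 20 compared members of the imprinted list, which does not hold every imprinted gene. Their median was 0.25, and H19 (0.51) and Ndn (0.66) lay on the other side. Nap1l5, which is not on this list, was past the rule in OSKM at 1.04. It lies wholly within Herc3 on the other strand, which had a log2 ratio of 0.21, and their reads may not be separate.

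The wider lists held few genes past the rule. Of 36 cell cycle genes 29 were above 0 and none was past the rule, with a median of 0.29. Mcm3, of the replicative helicase, was highest among these at 1.72-fold (1.66 to 1.78), while Cdk1, the mitotic kinase, was at 8.47 RPKM in OSKM and 8.61 in G3SKM. Of 20 glycolysis genes 18 were above 0 and 1, Ldhb, was past the rule, with a median of 0.28. Of 46 respiratory chain subunits 12 were above 0 and none was past the rule, with a median of -0.21. Atp5e, the epsilon subunit of ATP synthase, was lowest at a log2 ratio of -0.97, at 37.3 RPKM in OSKM and 74.0 in G3SKM, whereas Atp5a1, the alpha subunit, was at 0.42. The subunits of 1 complex thus lay on both sides of zero.

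Fibroblast genes were mostly at like levels in both groups. None of 34 fibroblast matrix genes and none of 12 mesenchymal regulators was past the rule, with medians of -0.01 and 0.25. On the exon-length scale none of 35 matrix genes was past the rule, while 1 of 25 mesenchymal regulators was, in OSKM at 1.73. The medians on that scale were -0.03 and 0.10. The 36 matrix genes summed to 673 RPKM in OSKM and 734 in G3SKM, beside 2217 in empty_vector and 1114 in SKM, so both groups stood far below the cells without factors. Col1a1, the main collagen, was at 143 RPKM in OSKM and 166 in G3SKM. Of the lineages that OCT4 or GATA3 are known for, none of 8 trophoblast genes compared was past the rule, with a median of 0.01. On the exon-length scale 1 of 13, Krt18, was past the rule in G3SKM, at -1.26, and the median was 0.09. Hand1, a trophoblast and mesoderm factor, was at 4.25 RPKM in OSKM and 3.17 in G3SKM, and Krt18, a keratin of simple epithelia, at 0.313 and 1.27. Gata4, Gata6, Sox17 and Eomes stayed under 1 RPKM in both groups: Gata6 was at 0.166 RPKM in OSKM and 0.143 in G3SKM, and Eomes at 0.0507 and 0.0398. Gata4 had 25 and 64 reads, and Sox17 had 14 and 0. Dlx3 was at 0.118 and 0.0813 RPKM, and Lhx5 had 13 and 2 reads. No endothelial or melanocyte marker reached the filter.

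**Figure D4:**
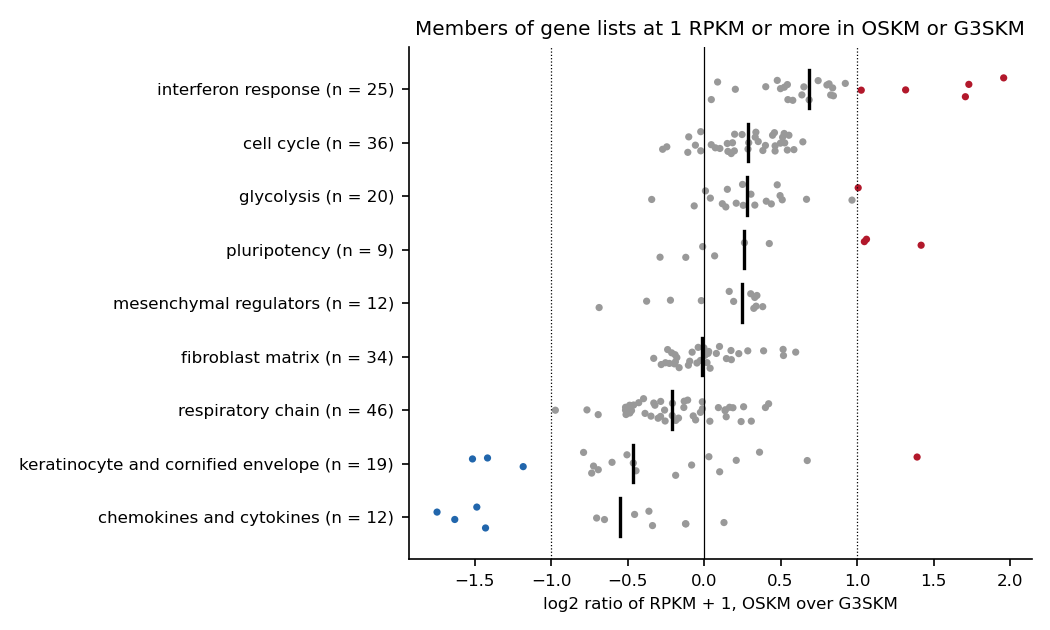
log2 ratio of RPKM + 1, OSKM over G3SKM (x axis), of the members at 1 RPKM or more for 9 gene lists (y axis), with bars at the medians and dotted lines at the rule of size. The medians run from 0.69 for the interferon response to -0.55 for chemokines and cytokines, with fibroblast matrix genes at -0.01.

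Small RNA genes made up 142 of the 230 genes higher in G3SKM. Small nucleolar RNAs (snoRNAs) guide chemical changes of ribosomal and spliceosomal RNA; those of the C/D box class guide methylation of the ribose and those of the H/ACA box class the change of uridine to pseudouridine. Most are cut from introns of host genes. Of 202 snoRNA genes compared, 113 were past the rule in G3SKM and 1 in OSKM, with a median log2 ratio of -1.09 and 192 below 0. Over 6 small RNA classes the count was 142 of 318 (44.7%), against 2.25% for all genes. All 56 genes with a C/D box symbol (Snord) were below 0, 33 of them past the rule, with a median of -1.13. All 30 with an H/ACA symbol (Snora) were below 0 as well, 17 past the rule, with a median of -1.03. Of 70 microRNA loci 9 were past the rule in G3SKM, with a median of -0.27.

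Printed here are 5 of the 6 C/D box snoRNAs with the largest differences among those at 5 RPKM or more in G3SKM, 5′ to 3′, from GENCODE M21 (GRCm38), so that the values below can be set beside the molecules. Capitals mark the letters TGATG of the C box and the last CTGA, the D box, which fold together and bind fibrillarin.
Snord72, chr15:5118404-5118484, plus strand: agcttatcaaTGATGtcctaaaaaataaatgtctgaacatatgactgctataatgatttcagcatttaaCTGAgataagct
Snord38a, chr4:117154514-117154584, minus strand: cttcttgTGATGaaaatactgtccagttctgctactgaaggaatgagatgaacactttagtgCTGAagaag
Snord33, chr7:45126864-45126947, minus strand: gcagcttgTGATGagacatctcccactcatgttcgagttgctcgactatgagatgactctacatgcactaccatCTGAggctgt
Snord95, chr11:48803139-48803206, plus strand: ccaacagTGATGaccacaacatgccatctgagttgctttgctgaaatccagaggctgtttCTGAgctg
Snord68, chr8:123103038-123103123, plus strand: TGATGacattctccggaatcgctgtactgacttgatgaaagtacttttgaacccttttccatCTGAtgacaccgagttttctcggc

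TGATG stood before CTGA in 51 of the 56 C/D box genes, in 30 of the 33 past the rule, and in 2 of the 30 H/ACA box genes. Snord72 was at 1.84 RPKM in OSKM, from 11 reads, and 13.0 in G3SKM, from 106 reads, beside 2.14 in empty_vector and 2.54 in SKM, a 7.09-fold difference (3.81 to 14.6). Snord33 was at 7.58 RPKM in OSKM and 33.8 in G3SKM, beside 9.86 in empty_vector and 11.8 in SKM, a 4.46-fold difference (3.27 to 6.21). G3SKM was well above the other 3 libraries for both. Snord68 had 19 reads in OSKM and 108 in G3SKM, about as few as Snord72. Snord38a, with 3 reads in OSKM and 39 in G3SKM, and Snord95, with 4 and 37, rest on fewer reads. Their intervals are wide: 3.04 to 48.4 for Snord38a and 2.45 to 26.3 for Snord95.

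H/ACA box and other structural RNAs were also higher in G3SKM. Snora73b, needed to process ribosomal RNA precursors, was at 8.53 RPKM in OSKM and 36.9 in G3SKM, beside 11.8 in empty_vector and 26.8 in SKM, a 4.33-fold difference (3.59 to 5.26). Rmrp, the RNA of the ribonuclease that cuts ribosomal RNA precursors, was at 14.9 RPKM in OSKM and 50.1 in G3SKM, beside 3.30 in empty_vector and 14.3 in SKM, a 3.37-fold difference (2.97 to 3.83). Rn7sk, which holds back the elongation factor P-TEFb, was at 15.2 RPKM in OSKM and 33.8 in G3SKM, beside 5.97 in empty_vector and 11.3 in SKM, a 2.23-fold difference (1.98 to 2.51). Rmrp and Rn7sk are transcribed from promoters of their own by RNA polymerase III, and they too were highest in G3SKM.

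The host genes differed less than the small RNA genes within them. Of 211 snoRNA and Cajal body RNA genes compared, 167 lay inside a longer gene on the same strand, and 165 of these had a host past the filter. The median log2 ratio of the small RNA genes in these hosts was -1.12, and that of their 88 hosts, with the reads of the enclosed small RNA genes taken off, was -0.12, with 3 hosts past the rule. Of the 165 small RNA genes 148 had a lower log2 ratio than their host. Snord72 had -2.31 and its host Rpl37 -0.15, and Snord95 had -1.84 and its host Rack1 0.11. Other hosts were lower, and 51 of the 88 were below 0: Taf1d was at -0.97, Zfas1 at -0.94, Snhg12 at -0.89 and Snhg3 at -0.86 without the enclosed reads. The 44 small RNA genes inside no longer gene had a median of -0.97. The 3 hosts past the rule were Snhg17 at -1.03, Snhg20 at -1.04 and 1810032O08Rik at -1.33 without the enclosed reads. Other short genes leaned the same way by less. Of 27 annotated genes of other classes with under 150 bases of exon 2 were past the rule in G3SKM, with a median of -0.18 and 1 past it in OSKM, and of 188 with 150 to 300 bases 4 were, with a median of -0.07. None of the 29 protein-coding genes higher in G3SKM holds a snoRNA or Cajal body RNA gene.

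**Figure D5:**
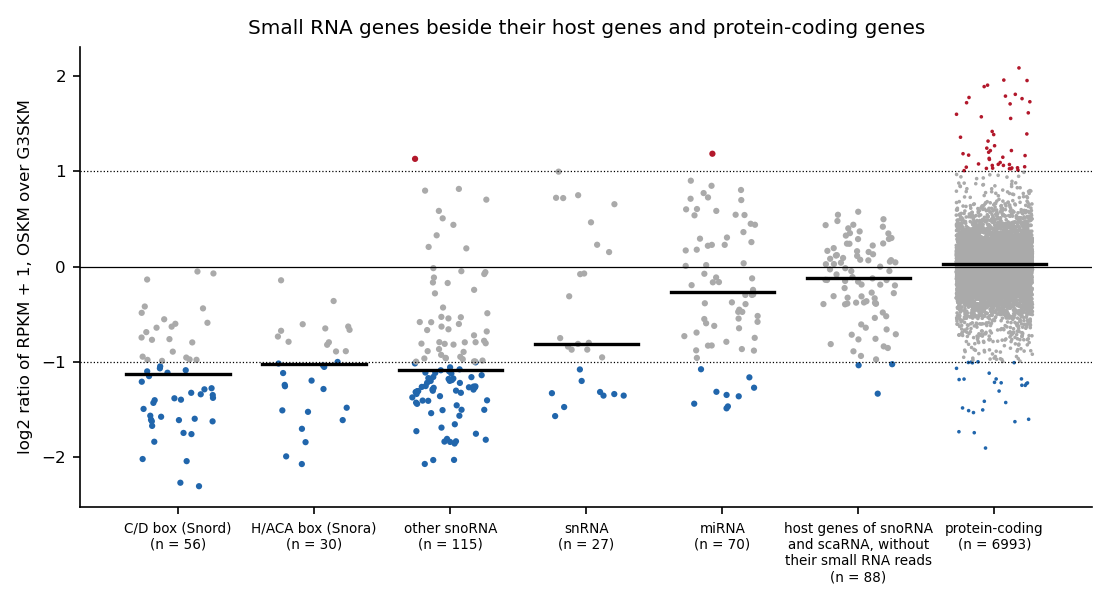
log2 ratio of RPKM + 1, OSKM over G3SKM (y axis), for genes of small RNA classes, for the 88 hosts of snoRNA and Cajal body RNA genes without the enclosed reads, and for 6993 protein-coding genes, with bars at the medians and dotted lines at the rule of size. The medians are -1.13 for C/D box and -1.03 for H/ACA box genes, -0.12 for hosts and 0.02 for protein-coding genes.

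The levels in the other libraries were compared on the log2(RPKM + 1) scale. The genes were chosen from the OSKM and G3SKM values themselves, so the counts are descriptions. A library below both groups is nearer to the lower of them by position alone, and a library above both is nearer to the higher. Of the 48 protein-coding genes higher in OSKM, empty_vector was nearer to G3SKM for 47 and SKM for 37. Of the 29 higher in G3SKM, empty_vector was nearer to OSKM for 23, while SKM was nearer to G3SKM for 24. Of the 142 small RNA genes higher in G3SKM, empty_vector was nearer to OSKM for 131 and SKM for 98. By these counts SKM was nearer to G3SKM for most genes of both protein-coding sets. However, empty_vector lay below both groups for 32 of the 48, 21 of the 29 and 75 of the 142 genes. SKM lay below both for 16, 2 and 43 of them, and above both for 12 of the 29. The SKM library is set apart by base composition: across genes, which are not independent replicates, the log2 ratio of OSKM over SKM had a Spearman correlation with transcript GC content of -0.73, and that of OSKM over G3SKM of 0.05. How much this moves the SKM values of single genes was not tested.

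The letters of the octamer ATGCAAAT, bound by POU factors, stood on either strand in the 250 bases before the start of 1 of 30 genes higher in OSKM with a promoter in the table (Nrarp), in none of 19 higher in G3SKM, in 1.23% of the genes compared, and in 1.81% of all genes of the table. The letters AGATAA, known for binding GATA factors, stood in 1 of 30 and in 2 of 19 (Fgf3 and Saa3), in 6.16% of the genes compared, and in 11.4% of all genes of the table. With sets of this size the counts describe these promoters and no more.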

How the data were processed

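RNA was measured in 4 groups of mouse embryonic skin fibroblasts, from 3 deposited tables that each hold 2 groups. Reads were aligned with TopHat 1.3.0, and the build was mm9, per the submitters' processing notes. For the counter, the gene annotation and the way replicates were joined, no statement was found in the labels or headers. The authors deposited RPKM values, 1 column per group, and a log2 ratio, which differed by at most 0.0017 from the ratio of the columns and was not used. A value of 0.001 stands for no reads and was set to 0. The SKM column was the same in all 3 tables.

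The deposited RPKM fall on whole-read steps for a length equal to the gene span in GENCODE M21 less 1 base (74.8% to 76.7% of values within 0.05 of a whole number), which gave the depth and the reads per gene. That annotation matched 91.0% of the 27597 listed genes. Tables were joined on the gene identifier. Log2 ratios are of RPKM + 1, over genes at 1 RPKM or more in either group. A group at 0 reads was set to a floor of 3 reads per library for folds. Exon-length RPKM divide the same reads by the exon length. GC trends were removed in 20 bins. With 1 value per group no test was made, and a rule of size stood in for it. The computation was tested on simulated data.

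The members and the 43 gene lists were chosen with earlier results of these data known. Named were the delivered factors, the 15 largest log2 ratios in each direction among protein-coding genes at 5 RPKM or more, the 5 largest among other genes, and up to 4 members per list past the rule with the member nearest its median. Genes named from the exon-length scale, from histone, connexin and late cornified envelope families, from the set past the rule below 5 RPKM and at the edges of the rule were chosen after their values were seen, as were other members named beside a list. Promoters and snoRNA sequences come from RefSeq (GRCm38.p6) and GENCODE M21 (GRCm38), a later build than that of the reads, and no coordinate was converted. Some genes chosen by these rules are not reported here. Alternatives were the pseudocount, the filter, the size of the rule, the scaling, the length, GC content, the gene class and a minimum of reads. Python 3.11.15, pandas 2.3.3, numpy 2.4.6, SciPy 1.17.1 and matplotlib 3.10.9 were used.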

Additional observations from a re-analysis of the deposited data

How the results depend on the processing

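The 74 genes higher in OSKM and 230 higher in G3SKM became 181 and 442 with a pseudocount of 0.1 RPKM, 14 and 58 with a pseudocount of 5 RPKM, 3 and 12 at an absolute log2 ratio of at least 2, and 48 and 29 among protein-coding genes alone. A filter at 5 RPKM left 37 genes higher in OSKM, and exon length gave 227. A minimum of 100 reads left 128 genes higher in G3SKM. Of the alternatives chosen after seeing the data, leaving out small RNA genes left 88 higher in G3SKM, and exon length with the GC trend removed gave 218 higher in OSKM. No filter, centring, trimmed mean scaling, removal of the GC trend and taking small RNA reads off their hosts kept both counts within 1.5 times. Of 43 named genes past the rule none was reversed under these settings. With a pseudocount of 5 RPKM 31 of them no longer passed, and with the GC trend removed 4 did not, nor did Gbp3 and 2 Hist1 H2A genes outside these 43. Why the counts moved was not tested beyond the change of genes and threshold that each setting makes. Of 31 list medians under these settings, those of the interferon, chemokine, Hox, and Polycomb and histone demethylase lists left their main interval. The interferon median of 0.69 was 0.95 with a pseudocount of 0.1 RPKM, 0.30 with 5 RPKM and 0.87 with a filter at 5 RPKM. The chemokine median of -0.55 was -0.10 with no filter. With a filter at 5 RPKM the Hox value was 0.45 and the Polycomb and histone demethylase value 0.32. Each was then the value of 1 gene, against 21 and 14 genes in the main setting. Depth limits values that rest on few reads, such as Snord38a with 3 reads in OSKM and 39 in G3SKM or Nr0b1 with 343 and 2. No paired analysis was possible because each group has 1 column for its combined replicates, and for the same reason no replicate could be left out.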
